A study of Homo sapiens with 4 samples.

Results

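The aldehyde dehydrogenases (ALDH), alcohol dehydrogenases (ADH) and aldo-keto reductases (AKR) were examined in MCF10A cells, an immortalised, non-tumorigenic human mammary epithelial line. Members were all genes whose symbol begins with ALDH or AKR followed by a digit, or is ADH followed by a number from 1 to 7, which gave 36 of the 18840 genes measured: 18 ALDH, 7 ADH and 11 AKR genes. Each line stably carried 1 of 4 pBabe retroviral constructs: nothing but the vector, GFP, miR-105 (a microRNA) or MYC (a transcription factor), so the parental line and the retroviral backbone were common to all groups. Poly(A) RNA from each was sequenced as 1 library, and the vector and GFP libraries served as controls. No group had a replicate, and it is not stated whether each line was a clone or a pool. The design sets cells with miR-105 beside cells with MYC.

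Most of these enzymes move electrons between NAD+ or NADP+ and a carbonyl group. Alcohol dehydrogenases oxidise alcohols to aldehydes and the reverse, aldehyde dehydrogenases oxidise aldehydes to carboxylic acids, and most aldo-keto reductases reduce aldehydes and ketones, including steroids and prostaglandins, to alcohols. In breast epithelium the families are known for making retinoic acid, for clearing lipid aldehydes and for interconverting active and inactive steroid hormones, and aldehyde dehydrogenase activity is widely used to sort breast cells with stem-like properties.

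Several members are near-identical copies, and their sequences are shown because they decide how far the values of single copies can be read. The AKR1C genes lie side by side on chromosome 10 (GRCh38 chr10:4963253-5218949, a span of 256 kb), and the 7 ADH genes lie on chromosome 4 (chr4:99070978-99435737, 365 kb). Below are the first 90 coding bases of a GENCODE v29 transcript of each copy, from the start codon. Capitals mark bases that differ from AKR1C1, or from ADH1B in the second set.
AKR1C1: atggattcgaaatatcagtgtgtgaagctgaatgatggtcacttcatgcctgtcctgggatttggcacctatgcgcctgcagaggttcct
AKR1C2: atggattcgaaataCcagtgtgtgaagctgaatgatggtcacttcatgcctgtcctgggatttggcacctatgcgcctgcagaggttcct
AKR1C3: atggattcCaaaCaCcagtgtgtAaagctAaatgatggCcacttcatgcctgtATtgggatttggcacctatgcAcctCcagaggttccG
AKR1C4: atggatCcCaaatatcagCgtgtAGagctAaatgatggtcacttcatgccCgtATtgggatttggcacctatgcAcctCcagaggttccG
ADH1B: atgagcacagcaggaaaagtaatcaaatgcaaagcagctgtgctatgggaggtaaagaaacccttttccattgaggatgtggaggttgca
ADH1A: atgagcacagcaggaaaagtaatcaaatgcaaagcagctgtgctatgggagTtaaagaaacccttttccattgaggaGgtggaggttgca
ADH1C: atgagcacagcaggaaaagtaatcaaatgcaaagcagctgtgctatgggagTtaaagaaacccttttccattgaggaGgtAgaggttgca

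In this stretch AKR1C2 differed from AKR1C1 at 1 base, AKR1C3 at 11 and AKR1C4 at 12, while ADH1A and ADH1C differed from ADH1B at 2 and 3. Over the whole coding sequence AKR1C1 and AKR1C2 were 98.0% identical, with 19 mismatches in 969 bases. The other AKR1C pairs were between 87.8% and 91.4% identical, and the ADH1 pairs between 93.9% and 95.6%. Of all 50-base windows in the coding sequence, 53.7% of those of AKR1C1, 57.1% of AKR1C2, 23.0% of AKR1C3 and 12.2% of AKR1C4 also occurred in another AKR1C copy. The corresponding shares were 18.9% for ADH1A, 34.3% for ADH1B and 24.6% for ADH1C, and in addition the annotated spans of ADH1B and ADH1C overlap on the same strand. No source used here gives how reads that fit several copies were assigned, so values of single AKR1C and ADH1 genes are uncertain, and the sum over copies is given beside them.

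Library totals were between 6859698 reads (miR-105) and 14025115 (GFP), so that 1 read was worth between 0.0722 and 0.157 CPM (counts scaled to library depth, the unit of level used below), and a count of 0 reads allows up to 0.217 to 0.471 CPM (3 reads). The MYC transcript, read as a test of the labels, had 207 CPM in vector and 198 in GFP, 232 with the MYC label and 463 with the miR-105 label. It was thus highest in a library with another label, so directions below are tied to the label of a library and to no measured excess of its construct. Intervals in parentheses are exact 95% intervals that cover counting error alone, and since the reads carry no molecular identifiers they are not independent molecules.

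Averaged over the 4 libraries, 27 members reached 1 CPM (14 ALDH, 4 ADH and 9 AKR). A member was called in a library that differed from each control by 2-fold or more in the same direction. In the library labelled MYC, 13 of the 27 were called higher, 48.1%, where 9.03% of all 12484 genes tested were, and 3 were called lower, 11.1%, where 10.4% of all genes were. With the miR-105 label 8 were called higher, 29.6% against a background of 14.7%, and 6 lower, 22.2% against 16.6%. ADH1A, ADH1B, ADH1C and AKR1B10 were under 1 CPM in both controls and passed the filter only through the library labelled MYC, so they could be called in 1 direction alone. Leaving them out, 9 of 23 members were called higher with the MYC label and 8 of 23 with the miR-105 label. The shares of all genes were not recomputed without genes of this kind, so these counts have no matching background. With the reads of near-identical copies summed and each set taken as 1 member, 8 were called higher with the MYC label and 5 with the miR-105 label. The sets were the ADH1 genes, the AKR1C genes, AKR1B10 with AKR1B15, and AKR7A2 with AKR7A3. These counts are thus out of fewer than 27, and they have no matching background either. The MYC count still includes the ADH1 set, which was at 0.216 CPM or less in every other library.

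Calls with the miR-105 label were AKR1C1, AKR1C2, AKR1C3, AKR1C4, ALDH1B1, ALDH7A1, ALDH16A1 and ALDH18A1 as higher, and ALDH1A3, ALDH3A1, ALDH3B1, ALDH3B2, ALDH6A1 and ALDH8A1 as lower. Calls with the MYC label were ADH1A, ADH1B, ADH1C, ADH5, AKR1B10, the 4 AKR1C genes, ALDH3A1, ALDH5A1, ALDH7A1 and ALDH9A1 as higher, and ALDH1A3, ALDH3B1 and ALDH3B2 as lower. These comparisons share their controls, so calls set side by side are not independent. ALDH3A1 was the member called in opposite directions, and 6 members were called with neither label.

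**Figure D1:**
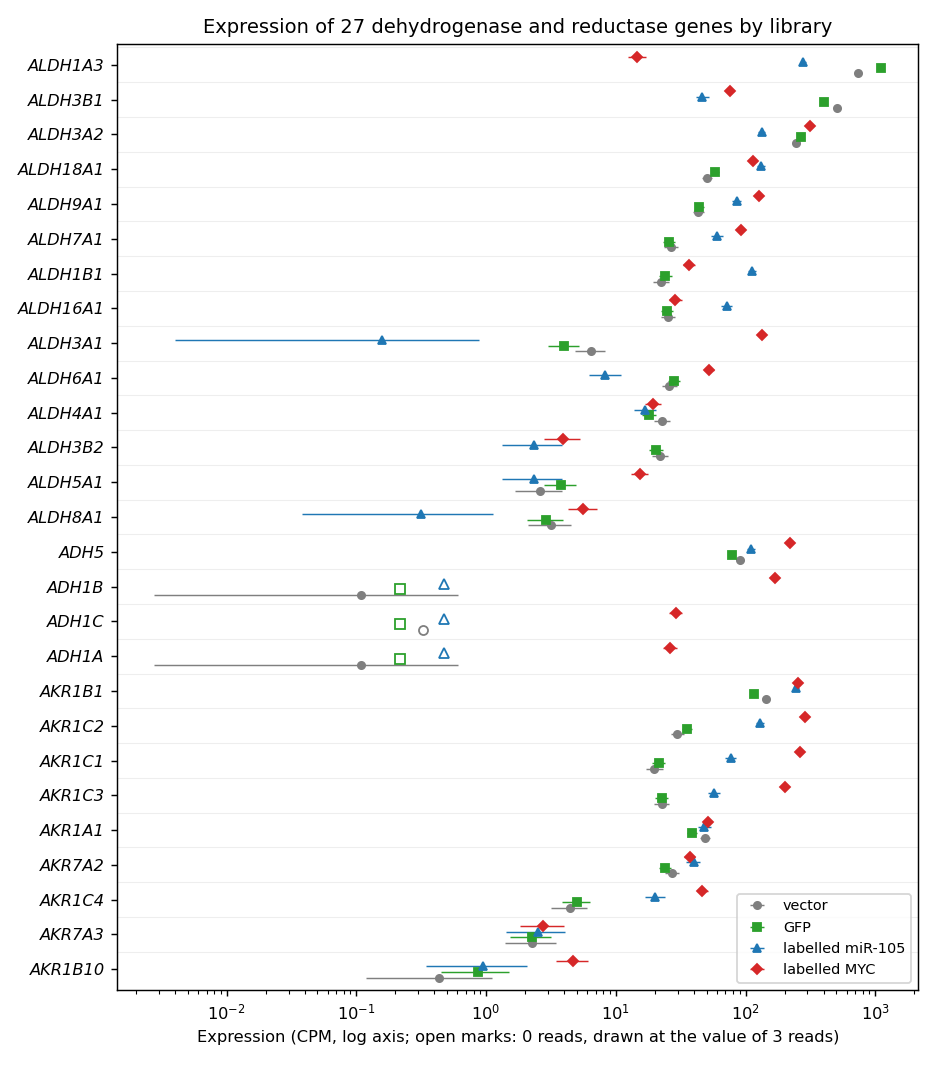
Level of the 27 members that passed the filter, in CPM on a log axis, with 1 mark per library and lines for the exact Poisson 95% interval. Open marks stand for 0 reads and are drawn at the value of 3 reads. ALDH1A3 runs from 1109 CPM in GFP to 14.5 CPM in the library labelled MYC, and ADH1B stands at 168 CPM there against 1 read or none elsewhere.

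**Figure D2:**
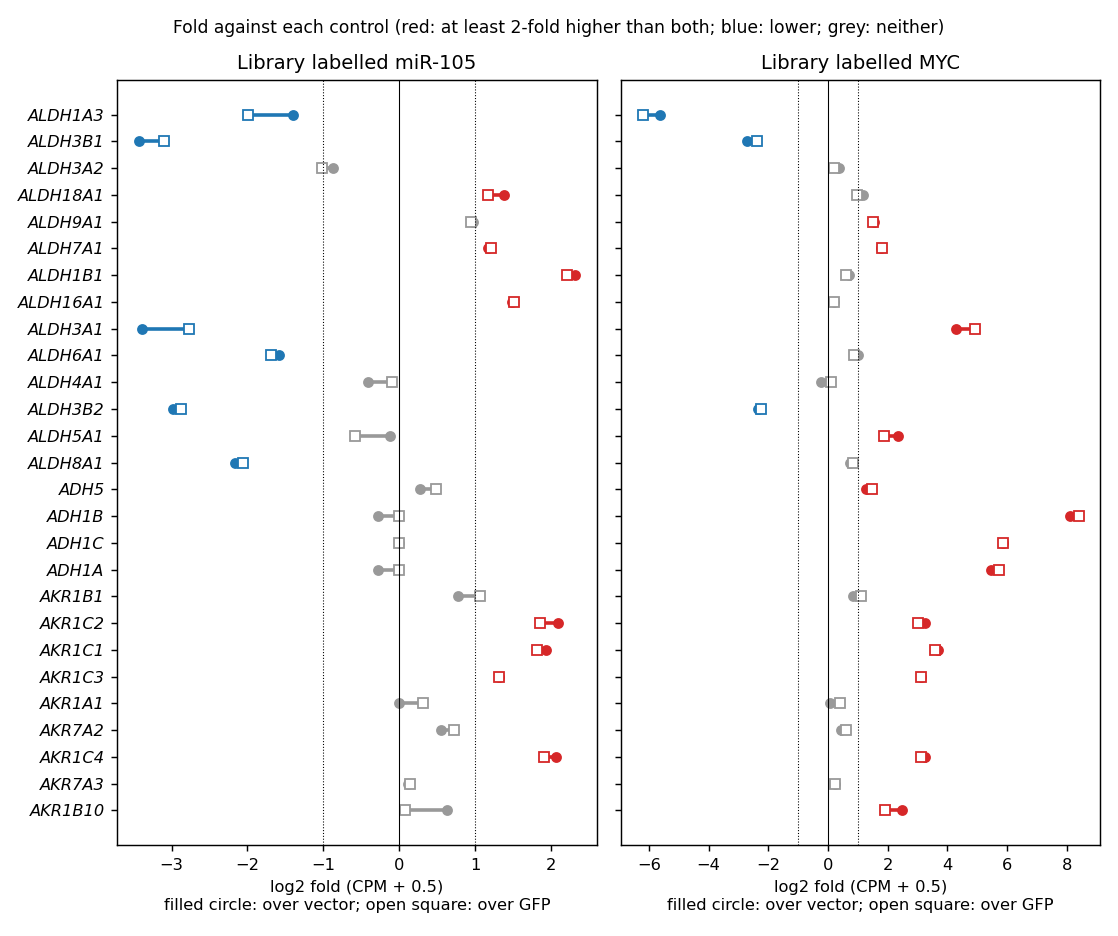
Log2 fold of each member over the vector library (filled circles) and over the GFP library (open squares), after adding 0.5 CPM, with dotted lines at 2-fold. Red and blue mark the 8 and 6 members called higher and lower with the miR-105 label and the 13 and 3 called with the MYC label.

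ALDH1A3 makes retinoic acid from retinaldehyde and was the member with the most reads in both controls. It stood at 737 CPM in vector, 1109 in GFP, 279 in the library labelled miR-105 and 14.5 in the one labelled MYC. Both controls were above both other libraries, although the controls themselves differed 1.51-fold (1.46 to 1.55). With the miR-105 label ALDH1A3 was 2.64-fold (2.51 to 2.79) lower than in vector and 3.98-fold (3.79 to 4.18) lower than in GFP, while the MYC label had it lower by factors of 50.8 (43.3 to 60) and 76.4 (65.2 to 90.2). Its share of all member reads went from 34.7% in vector and 46.6% in GFP to 16.6% and 0.551%. The other retinaldehyde dehydrogenases had almost no reads: ALDH1A1, a common marker of stem-like breast cells, had 1 read, in the library labelled MYC, and ALDH1A2 had 1 read, in the vector library. In these cells ALDH1A3 therefore held all but 2 of the reads of the 3 retinaldehyde-oxidising ALDH1A genes.

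ALDH3B1 and ALDH3B2 oxidise fatty aldehydes that arise from membrane lipids. ALDH3B1 stood at 504 CPM in vector, 402 in GFP, 46.4 with the miR-105 label and 76.3 with the MYC label. Against vector and GFP it was lower by factors of 10.8 (9.64 to 12.2) and 8.66 (7.70 to 9.77) in the library labelled miR-105, and of 6.60 (6.12 to 7.12) and 5.27 (4.89 to 5.68) in the one labelled MYC. ALDH3B2, also on chromosome 11, followed the same order at 21.9, 20.4, 2.35 and 3.89 CPM in vector, GFP, miR-105 and MYC. Its folds were 9.33 (5.52 to 17.0) and 8.66 (5.16 to 15.7) lower with miR-105 and 5.65 (4.02 to 8.10) and 5.24 (3.77 to 7.46) lower with the MYC label. ALDH3B2 held 4.18%, 4.82%, 4.82% and 4.85% of the reads of the pair, a nearly constant ratio. The coding sequences were 86.8% identical, and 2.58% of the 50-base windows of ALDH3B1 and 3.16% of those of ALDH3B2 were shared.

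The nearby genes of the ALDH3A branch on chromosome 17 behaved differently from each other. ALDH3A1, a cytosolic enzyme for aromatic and medium-chain aldehydes that is abundant in the cornea, stood at 6.38 CPM in vector, 3.97 in GFP, 0.157 (1 read) with the miR-105 label and 135 with the MYC label. The miR-105 label had it lower by factors of 40.7 (7.02 to 1633) and 25.3 (4.36 to 1018), which rest on a single read. With the MYC label it was 21.1-fold (16.3 to 27.9) and 33.9-fold (25.9 to 45.2) higher. Between the libraries labelled miR-105 and MYC the difference was 858-fold (154 to 33927). ALDH3A2, the microsomal fatty aldehyde dehydrogenase that is defective in Sjögren-Larsson syndrome, stood at 243, 269, 133 and 313 CPM in vector, GFP, miR-105 and MYC. ALDH3A2 met the 2-fold rule against GFP (2.02-fold, 1.88 to 2.18, lower) but not against vector (1.83-fold, 1.69 to 1.98) with the miR-105 label, and with the MYC label it was 1.28-fold and 1.16-fold higher.

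The other ALDH genes that passed the filter, given here and in the next paragraphs, went in both directions with the miR-105 label. ALDH1B1, a mitochondrial enzyme that oxidises acetaldehyde, stood at 22.3 CPM in vector, 24.1 in GFP, 113 with the miR-105 label and 36.6 with the MYC label, and was 5.07-fold (4.34 to 5.95) and 4.68-fold (4.11 to 5.35) higher than the controls with the miR-105 label. ALDH16A1 stood at 25.2, 24.7, 71.4 and 28.8 CPM in the same order, 2.83-fold (2.41 to 3.33) and 2.89-fold (2.51 to 3.33) higher with the miR-105 label. ALDH16A1 was high in 1 library, with the other 3 close together, while ALDH1B1 with the MYC label lay 1.64-fold (1.38 to 1.96) and 1.52-fold (1.31 to 1.76) above the controls and was not called.

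ALDH18A1, which makes the precursor of proline and ornithine from glutamate, stood at 50.5, 58.3, 132 and 115 CPM in vector, GFP, miR-105 and MYC. It was called with the miR-105 label, at 2.62-fold (2.33 to 2.94) and 2.27-fold (2.05 to 2.50) higher. With the MYC label it lay at the threshold, 2.28-fold (2.05 to 2.54) above vector and 1.98-fold (1.81 to 2.16) above GFP, and was not called. ALDH4A1, which acts in the opposite direction of the pathway by degrading proline, was between 16.9 and 22.7 CPM in all 4 libraries.

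ALDH6A1 oxidises semialdehydes from valine and thymine breakdown. It stood at 25.9 CPM in vector, 28.0 in GFP, 8.31 with the miR-105 label and 52.0 with the MYC label. The first label had it lower by factors of 3.12 (2.31 to 4.29) and 3.37 (2.53 to 4.58). With the second it was higher by factors of 2.01 (1.72 to 2.34) and 1.86 (1.63 to 2.12), the last below the threshold. ALDH8A1, an enzyme of tryptophan breakdown, was lower with the miR-105 label at 2 reads (0.314 CPM) against 3.14 and 2.89 CPM, or 9.99-fold (2.53 to 86.4) and 9.21-fold (2.39 to 78.7), and stood at 5.59 CPM with the MYC label. The miR-105 call of ALDH8A1 was the least firm of these: its adjusted p was 0.00481 by edgeR and 0.07 by DESeq2, with the controls as 1 group.

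ALDH7A1, which acts in lysine breakdown, was higher under both labels. It stood at 26.6 and 25.9 CPM in the controls, 60.2 with the miR-105 label and 91.8 with the MYC label, the latter 3.45-fold (3.0 to 3.99) and 3.54-fold (3.13 to 4.01) higher. ALDH9A1, an enzyme of carnitine and GABA formation from amino aldehydes, stood at 43.1 and 43.9 CPM in the controls, 85.2 and 127. It was called with the MYC label, at 2.95-fold (2.64 to 3.31) and 2.90-fold (2.63 to 3.19), and fell just short with the miR-105 label, at 1.97-fold (1.73 to 2.25) and 1.94-fold (1.72 to 2.18). ALDH5A1, which oxidises the succinic semialdehyde left by GABA breakdown, stood at 2.59, 3.76, 2.35 and 15.3 CPM and was 5.88-fold (3.82 to 9.45) and 4.06-fold (2.96 to 5.67) higher with the MYC label.

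The class I alcohol dehydrogenases ADH1A, ADH1B and ADH1C oxidise ethanol and retinol and are best known from the liver. ADH1B had 1 read in vector, 0 in GFP, 0 with the miR-105 label and 1770 (168 CPM) with the MYC label. ADH1A had 1, 0, 0 and 277 reads (26.3 CPM), and ADH1C had 0, 0, 0 and 305 reads (28.9 CPM). All 3 genes were thus at or under 3 reads in every library but the one labelled MYC. Against vector ADH1B was 1552-fold (278 to 61343) higher there and against GFP at least 774-fold, ADH1A 243-fold (43.2 to 9629) and at least 121-fold, and ADH1C at least 89.2-fold and at least 133-fold. A fold written as at least is against 3 reads in the control library, without counting error. The exact 95% lower limits are smaller, 629 for ADH1B and 97.9 for ADH1A over GFP, and 72.1 and 108 for ADH1C over vector and GFP. Summed over the 3 copies, reads were 2, 0, 0 and 2352, a level of 223 CPM with the MYC label, of which ADH1B held 75.3%, ADH1C 13.0% and ADH1A 11.8%.

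ADH5, the glutathione-dependent formaldehyde dehydrogenase that most cells express, was the one ADH gene with reads throughout. It stood at 91.2 CPM in vector, 78.7 in GFP, 109.9 with the miR-105 label and 219 with the MYC label, where it was 2.40-fold (2.22 to 2.60) and 2.78-fold (2.59 to 2.99) higher. ADH4, ADH6 and ADH7 had at most 6 reads in any library. ADH6 had 1 read in vector, 0 in GFP, 1 with the miR-105 label and 6 with the MYC label. ADH7, the retinol-active enzyme of the upper digestive tract, had 1 read in the vector library and 0 in the other 3.

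**Figure D3:**
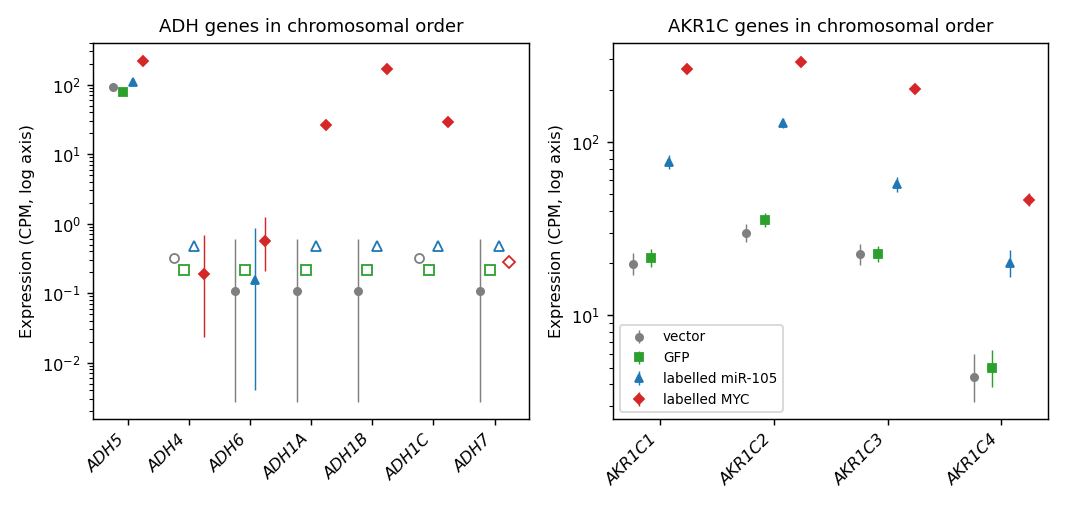
Level in CPM (log axis) of the 7 ADH genes and the 4 AKR1C genes in chromosomal order, by library, with exact Poisson 95% intervals and open marks at the value of 3 reads for genes with 0 reads. ADH1A, ADH1B and ADH1C stand at 26.3 to 168 CPM in the library labelled MYC, while all 4 AKR1C genes are ordered controls, miR-105, MYC.

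The AKR1C genes encode hydroxysteroid dehydrogenases that act on progesterone, androgens and prostaglandins. AKR1C1, which inactivates progesterone, stood at 19.8 CPM in vector, 21.5 in GFP, 76.7 with the miR-105 label and 263 with the MYC label. AKR1C2, which inactivates dihydrotestosterone, stood at 29.8, 35.5, 129 and 288 CPM in that order. AKR1C3, which forms testosterone from androstenedione and makes prostaglandin F, stood at 22.6, 22.7, 56.9 and 202 CPM. Each copy had the order controls, miR-105, MYC, and in none did the controls differ by more than 1.19-fold.

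AKR1C4, known as the liver form, stood at 4.43 and 4.98 CPM in the controls, 20.1 with the miR-105 label and 46.5 with the MYC label. Fold changes over vector and GFP with the MYC label were 13.3 (11.4 to 15.5) and 12.3 (10.9 to 13.9) for AKR1C1, and 9.65 (8.53 to 11) and 8.10 (7.36 to 8.93) for AKR1C2. For AKR1C3 they were 8.94 (7.75 to 10.4) and 8.91 (7.91 to 10.1), and for AKR1C4 10.5 (7.63 to 14.8) and 9.34 (7.25 to 12.2). With the miR-105 label the same genes ranged from 2.51-fold (AKR1C3 over GFP) to 4.53-fold (AKR1C4 over vector). The sum of the 4 copies was 76.6, 84.7, 283 and 799 CPM in vector, GFP, miR-105 and MYC, which was 10.4-fold (9.66 to 11.3) and 9.44-fold (8.88 to 10.0) higher with the MYC label and 3.69-fold (3.38 to 4.03) and 3.34-fold (3.10 to 3.60) higher with the miR-105 label. AKR1C4 held 5.78%, 5.89%, 7.10% and 5.82% of the summed reads, and whether its reads came from the other copies was not tested.

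Outside that cluster AKR1B10 was the aldo-keto reductase called. AKR1B1, aldose reductase, which turns glucose into sorbitol, stood at 143 CPM in vector, 117 in GFP, 245 with the miR-105 label and 254 with the MYC label. Both labels passed 2-fold over GFP (2.10, 1.96 to 2.25, and 2.18, 2.05 to 2.32) but not over vector (1.72, 1.59 to 1.85, and 1.78, 1.67 to 1.90), so AKR1B1 was not called. AKR1B10, a retinaldehyde reductase also on chromosome 7, had 4, 12, 6 and 49 reads (0.432, 0.867, 0.941 and 4.65 CPM) and was 10.7-fold (3.94 to 41.0) and 5.36-fold (2.81 to 11.1) higher with the MYC label. With the controls as 1 group its adjusted p was 0.0006 by edgeR and 0.178 by DESeq2. AKR1A1, a general aldehyde reductase, stood at 48.5, 38.6, 48.2 and 51.0 CPM, and AKR7A2, which reduces succinic semialdehyde, at 27, 24, 39.7 and 37.0 CPM. AKR7A3 lay between 2.24 and 2.75 CPM. In these last 3 genes no fold over a control exceeded 1.65.

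Of the 36 members, 9 did not pass the filter. AKR1B15, ALDH1L1 and ALDH2 had most of their reads in the library labelled MYC. ALDH2, the main mitochondrial acetaldehyde dehydrogenase, had 3 reads in vector, 4 in GFP, 0 with the miR-105 label and 16 (1.52 CPM) with the MYC label. ALDH1L1, which oxidises formyl-tetrahydrofolate, had 0, 2, 2 and 25 reads, and AKR1B15 had 4, 5, 2 and 15. The other 6 (ADH4, ADH6, ADH7, AKR1D1, ALDH1A1 and ALDH1A2) had between 0 and 6 reads in each library.

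The controls were compared with each other. None of the 27 members was called higher or lower in GFP than in vector, where 3.06% and 1.03% of all genes were. Over 27 members, no call is near those shares. At a threshold of 1.5-fold 1 was higher, ALDH1A3, and 1 lower, ALDH3A1. The libraries labelled miR-105 and MYC were also compared directly, without the controls. Here 3 members were at least 2-fold higher with the miR-105 label (background 19.0%) and 13 at least 2-fold lower (background 19.8%). Without ADH1A, ADH1B, ADH1C and AKR1B10, which passed the filter only through the library labelled MYC, 3 of 23 were higher and 9 lower. The background was not recomputed for this exclusion. The 3 were ALDH1A3 at 19.2-fold (16.3 to 22.8), ALDH1B1 at 3.09-fold (2.72 to 3.5) and ALDH16A1 at 2.48-fold (2.14 to 2.87). Among the 13 were the 4 AKR1C genes, 2.23-fold to 3.55-fold lower, and ALDH6A1, 6.26-fold (4.72 to 8.47) lower.

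Medians of the log2 fold were taken by family. For the AKR genes the median was 0.92 with the miR-105 label and 2.19 with the MYC label, and 0 of 9 were called lower with either. The second of these medians is the value of AKR1B10, which passed only through the library labelled MYC, and without it the AKR medians over 8 genes were 1.12 and 2.05. These genes fall into 2 groups, and each median lies in the gap between them. The AKR1C copies, which may share reads, had log2 folds of 1.31 to 1.98 with the miR-105 label and 3.12 to 3.64 with the MYC label. AKR1A1, AKR1B1, AKR7A2 and AKR7A3 had 0.13 to 0.92 and 0.23 to 0.98. For the 14 ALDH genes that passed, the median was −0.64 with the miR-105 label and 0.72 with the MYC label. With the miR-105 label 4 were called higher (28.6%, against 14.7% of all genes) and 6 lower (42.9%, against 16.6%). With the MYC label 4 were called higher (28.6%, against 9.03%) and 3 lower (21.4%, against 10.4%). Over all 27 members the median was 0.15 with the miR-105 label and 1.08 with the MYC label, against 0.01 and 0.04 over all genes tested. Without the ADH1 genes and AKR1B10 the medians over 23 members were 0.37 and 0.94, and with copies summed the MYC median was also 0.94. Library totals alone as the scale moved the member medians to 0.05 and 1.19.

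The makeup of member reads differed between libraries more than the total did. All 36 members together had 2125 CPM in vector, 2380.3 in GFP, 1680.4 with the miR-105 label and 2631 with the MYC label. The ALDH3B pair held 24.7% of member reads in vector, 17.7% in GFP, 2.90% with the miR-105 label and 3.05% with the MYC label. The AKR1C genes went the other way, from 3.61% in vector and 3.56% in GFP to 16.8% with the miR-105 label and 30.4% with the MYC label. The ADH1 genes held 8.47% of member reads with the MYC label and 0.0102% or less elsewhere.

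**Figure D4:**
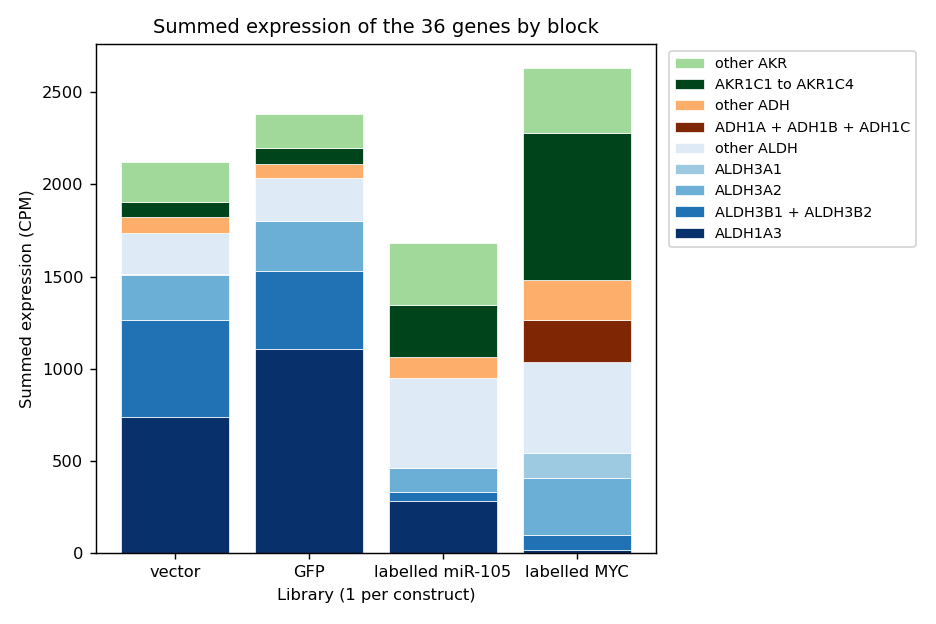
Summed level of the 36 members in CPM, stacked by gene or block, with 1 bar per library. ALDH1A3 fills 737 and 1109 CPM of the control bars and 14.5 CPM of the bar labelled MYC, where the AKR1C block fills 799 CPM.

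Levels of different genes were compared per length, as CPM per kilobase of annotated exons (RPKM). In the controls ALDH3B1 (172 RPKM in vector, 137 in GFP), ALDH1A3 (136 and 204) and AKR1B1 (101 and 82.8) had the highest levels. In the library labelled miR-105 AKR1B1 led at 174 RPKM, followed by ALDH1A3 at 51.4 and ADH5 at 42.0. In the one labelled MYC AKR1B1 led at 181 RPKM, ahead of AKR1C3 at 90.6, ADH5 at 83.7, ALDH3A2 at 75.6, AKR1C2 at 66.8 and ALDH3A1 at 59.6, and ADH1B stood at 39.0. These RPKM values use the union of all annotated exons, which is longer than most transcripts.

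A count test with vector and GFP taken as replicates of 1 control group kept nearly all calls, though it has 1 residual degree of freedom and compares these libraries, not the conditions. The edgeR quasi-likelihood test (adjusted p under 0.05 over all genes) kept the 8 higher and 6 lower calls with the miR-105 label, adding ALDH9A1, beside 19.8% and 19.3% of all genes. With the MYC label it kept the 13 higher and 3 lower calls, adding ALDH18A1 and ALDH6A1, beside 10.9% and 11.4% of all genes. DESeq2 called 12.9% of all genes higher and 14.0% lower with the miR-105 label, and 5.63% and 8.43% with the MYC label. It lost ALDH8A1 and AKR1B10, and added ALDH3A2 as lower with the miR-105 label and ALDH18A1 as higher with the MYC label.

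Genes that work with these enzymes were read from lists, described by counts of called genes and a median log2 fold. Of all genes tested, 14.7% were called higher and 16.6% lower with the miR-105 label (median 0.01), and with the MYC label 9.03% and 10.4% (median 0.04), and each list is to be read against these shares. CBR1 and CBR3 stand in both the NRF2 and the carbonyl list, and HIBADH in both the ethanol and the branched-chain list. Of the retinoid partners, which carry, make or respond to retinoids, 22 passed the filter. Of these, 2 were called higher (9.09%) and 12 lower (54.5%) with the miR-105 label (median −1.20), and 0 higher and 7 lower (31.8%) with the MYC label (median −0.58). RARRES1, a retinoic acid-responsive gene, stood at 277 CPM in vector, 404 in GFP, 22.1 with the miR-105 label and 10.4 with the MYC label. STRA6, the retinol transporter, stood at 88.2, 69.7, 14.7 and 16.3 CPM, and CYP26B1, which degrades retinoic acid, at 65.6, 149.6, 25.4 and 17.4 CPM. DHRS3, which reduces retinaldehyde to retinol, stood at 213, 198, 17.4 and 47.7 CPM. BCO1, which cleaves beta-carotene to retinaldehyde, stood at 4.22 and 3.32 CPM in the controls and had 0 reads under either label. An exception was LRAT, which esterifies retinol, at 48.8 CPM with the miR-105 label against 2.16 and 3.47 CPM in the controls.

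NRF2 is the transcription factor of the oxidative stress response, and AKR1C genes are known among its targets. Of 30 NRF2 targets outside the families, 4 were called higher (13.3%) and 2 lower (6.67%) with the MYC label (median 0.19), near the shares of all genes. In the library labelled miR-105 9 were higher (30%) and 4 lower (13.3%, median 0.33). ABCC2, an export pump, was high under both labels, at 44.5 and 35.6 CPM against 3.35 and 5.42. PIR stood at 4.11, 4.55, 13.0 and 18.0 CPM and the epoxide hydrolase EPHX1 at 25.3, 33.4, 40.3 and 128 CPM. ABCC3, another export pump, was called lower with the MYC label, at 75.3 CPM against 248 and 366. Among those called with the miR-105 label, CBR3, a carbonyl reductase, stood at 12.9 CPM against 2.38 and 2.17, ME1, which makes NADPH, at 66.0 CPM against 19.7 and 24.8, and the ferritin chain FTH1, lower, at 1313 CPM against 4931 and 3650.2.

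Among other carbonyl and sugar oxidoreductases, 5 of 29 were called higher (17.2%) and 3 lower (10.3%) with the miR-105 label (median 0.07), near the shares of all genes. With the MYC label 7 were higher (24.1%) and 2 lower (6.90%, median 0.36). HSD11B2, which inactivates cortisol, stood at 493, 361, 11.9 and 10.3 CPM in vector, GFP, miR-105 and MYC, and HSD17B2, which inactivates oestradiol and testosterone, at 232, 118, 8.16 and 6.45 CPM. HSD11B1, which regenerates cortisol, stood at 20.6 CPM with the MYC label and under 1 CPM in the other libraries. SORD, which follows AKR1B1 in the sorbitol pathway, stood at 30.6, 33.1, 189 and 82.5 CPM. KCNAB2, a potassium channel subunit of the aldo-keto reductase fold, stood at 8.97, 6.79, 0.941 and 34.6 CPM.

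The lists around amino acids, ethanol and folate were small. Of 20 partners in branched-chain amino acid, lysine and GABA metabolism, 7 were called higher (35%) and 1 lower (5%) with the MYC label (median 0.76). With the miR-105 label 1 was higher (5%) and 3 lower (15%, median −0.14), the latter near the share of all genes. AASS, which starts lysine breakdown upstream of ALDH7A1, stood at 42.5 CPM with the MYC label against 1.62 and 0.578. BBOX1, the last enzyme of the carnitine synthesis that ALDH9A1 serves, stood at 80.0 CPM with the MYC label against 6.16 and 7.80, and AADAT at 6.26 CPM against 1.30 and 1.52. AOX1, an aldehyde oxidase, was the gene called lower with the MYC label, at 12.7 CPM against 59.5 and 65.9. With the miR-105 label MAOA stood at 6.74 CPM against 212 and 111, BBOX1 at 0.314 against 6.16 and 7.80, ABAT at 0.471 against 3.03 and 3.83, and PCCB, higher, at 38.9 against 13.8 and 15.0.

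Of 7 ethanol and acetate genes, 1 was called higher (14.3%) and 3 lower (42.9%) with the miR-105 label (median −0.82), and 2 higher (28.6%) and 0 lower with the MYC label (median −0.13). ACSS1, which activates acetate in mitochondria, stood at 136 CPM with the MYC label against 6.81 and 4.84 and had 0 reads with the miR-105 label. ADHFE1, an alcohol dehydrogenase of another family, stood at 5.51, 3.18, 0.157 and 16.5 CPM, and with the miR-105 label ACLY was higher, at 582 CPM against 171 and 234, and GRHPR lower, at 70.0 against 217 and 151. Of 10 proline and arginine partners, 3 were called higher and 3 lower with the miR-105 label (30% each, median 0.46) and 1 each way with the MYC label (10% each, median 0.25). PRODH, which starts the proline breakdown that ALDH4A1 completes, stood at 7.78, 2.89, 0.627 and 59.9 CPM. PYCR1, which completes proline synthesis after ALDH18A1, stood at 16.9, 13.2, 45.6 and 29.2 CPM, ASS1 at 545, 356, 119 and 696, GLUD1 at 1069, 777, 328 and 595, and ASL at 39.7, 32.0, 65.7 and 14.3.

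Folate partners were higher with the miR-105 label in 6 of 10 (60%) and lower in 1 (10%, median 1.41), and higher with the MYC label in 2 (20%) and lower in 0 (median 0.43). TYMS, which makes thymidylate, stood at 10.1, 10.2, 144 and 14.1 CPM in vector, GFP, miR-105 and MYC. MTHFD1 stood at 69.9, 60.8, 262 and 115 CPM and MTHFD2L at 3.78, 4.12, 9.72 and 12.3 CPM.

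**Figure D5:**
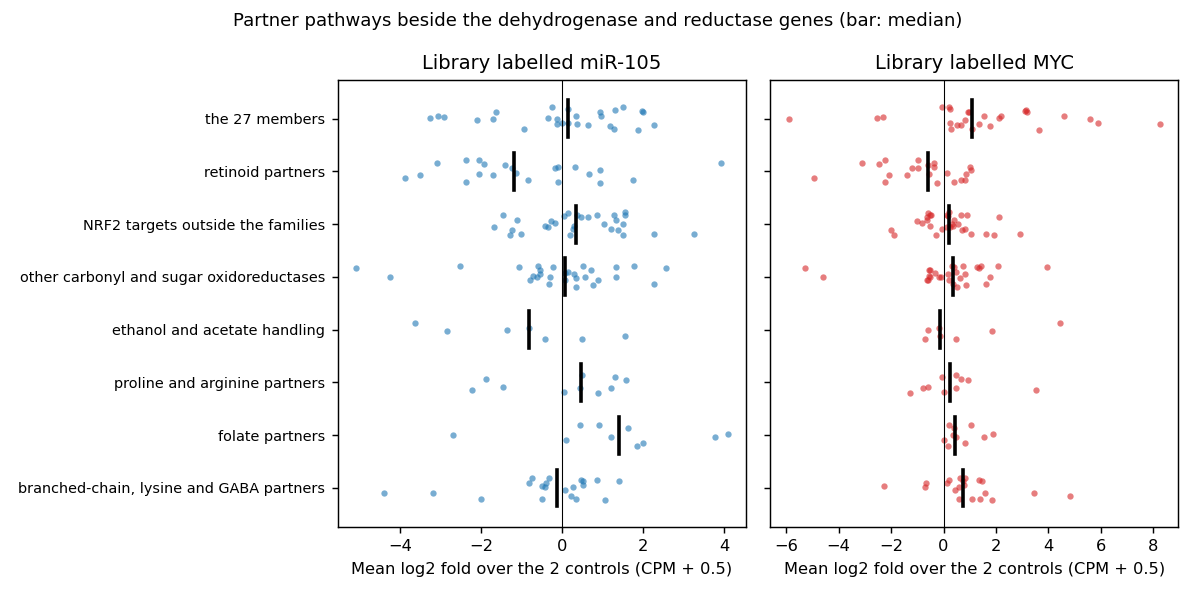
Mean log2 fold over the vector and GFP libraries, after adding 0.5 CPM, for each gene of the 7 partner lists and for the 27 members (points), with the median as a bar, in the libraries labelled miR-105 (blue) and MYC (red). Retinoid partners have the lowest median under both labels, −1.20 and −0.58.

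Marker lists of other cell types were read beside these results. All 14 mammary epithelial markers had reads in every library, with summed levels between 13725 CPM (MYC) and 23492 CPM (vector). These sums also hold opposite differences. With the miR-105 label 3 of the 14 were called higher and 5 lower, and with the MYC label 2 higher and 4 lower. KRT17 stood at 6927, 5131, 766 and 1777 CPM in vector, GFP, miR-105 and MYC, and KRT5 at 1757, 1614, 4654 and 4138. In the same order CDH1 stood at 549, 768, 368 and 183 CPM, and TP63 at 7.14, 14.4, 6.12 and 77.2. Hepatocyte markers, the cell type in which class I ADH and AKR1C4 are most abundant, summed to 7.24 CPM in vector, 5.20 in GFP, 0.627 with the miR-105 label and 7.30 with the MYC label. Of 12 hepatocyte markers 6 had 0 reads with the MYC label, ALB had 2 reads there and TTR had 0 in all 4 libraries, while CYP3A4 had 59 reads there against 0 and 5 in the controls. Markers of adipocytes, another type rich in ADH1B, summed to 28.5, 30.7, 38.6 and 16.4 CPM. FABP4 had 0 reads in all 4 libraries and ADIPOQ 1 read, in vector, while with the MYC label LIPE had 95 reads, PLIN4 43 and PLIN1 17. Fibroblast markers summed to 229, 216, 231 and 161 CPM, a sum of opposite differences. POSTN stood at 12.9, 5.06, 114 and 0.379 CPM, DCN at 117, 69.4, 16.0 and 141, and FAP at 85, 126, 90.2 and 2.56, and COL3A1 had 0 reads in all 4 libraries. Immune markers summed to 96.2, 99.3, 43.0 and 27.6 CPM. The endothelial list summed to 47.1, 49.7, 3.61 and 92.2 CPM, of which KDR alone was 88.9 CPM with the MYC label. The part of such genes in the member results was not tested, and in bulk RNA fewer cells of a type and less RNA per cell cannot be told apart.

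Promoters of the ADH1 genes are shown because these genes were high together in 1 library. Sequences are from RefSeq (GRCh38.p14, minus strand) and run from 250 bases before to 50 after the annotated start, at chr4:99290936-99291235 for ADH1A, chr4:99321352-99321651 for ADH1B and chr4:99352697-99352996 for ADH1C. Capitals mark CACGTG, the E-box that MYC with MAX is known to bind.
ADH1A promoter: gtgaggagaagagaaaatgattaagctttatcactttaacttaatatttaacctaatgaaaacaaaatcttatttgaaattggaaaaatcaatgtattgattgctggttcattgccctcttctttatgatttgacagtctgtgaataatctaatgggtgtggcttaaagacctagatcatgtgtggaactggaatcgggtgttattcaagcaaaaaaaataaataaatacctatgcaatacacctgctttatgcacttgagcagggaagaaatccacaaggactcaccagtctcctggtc
ADH1B promoter: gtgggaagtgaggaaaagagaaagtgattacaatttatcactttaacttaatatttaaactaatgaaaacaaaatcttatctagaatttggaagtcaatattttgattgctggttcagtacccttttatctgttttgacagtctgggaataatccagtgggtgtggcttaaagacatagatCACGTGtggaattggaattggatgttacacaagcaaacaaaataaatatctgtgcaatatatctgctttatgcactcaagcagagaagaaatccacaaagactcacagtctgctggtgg
ADH1C promoter: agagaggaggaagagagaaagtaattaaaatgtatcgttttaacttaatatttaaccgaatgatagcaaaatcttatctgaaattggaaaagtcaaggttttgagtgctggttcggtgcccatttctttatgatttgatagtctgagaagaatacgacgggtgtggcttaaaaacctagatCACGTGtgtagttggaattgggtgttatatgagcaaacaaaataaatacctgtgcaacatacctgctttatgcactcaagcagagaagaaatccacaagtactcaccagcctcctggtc

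The E-box begins 69 bases before the start in both ADH1B and ADH1C, and ADH1A has no match in this window. RefSeq gave 39 promoters for 30 of the 36 members, and none for AKR1B10, AKR1B15, ALDH2, ALDH3A1, ALDH3B2 and ALDH16A1. Of these, 6 held CACGTG on either strand (15.4%, against 7.26% of all 35116 promoters of the same length), at AKR1A1, ADH1B, ADH1C, ALDH18A1, ALDH3B1 and ALDH3A2. ALDH3B1, lower in the library labelled MYC, is thus among them with ADH1B and ADH1C, which were higher. The promoters counted are not independent, as ADH1B and ADH1C are near-identical copies and some genes gave several promoters, some of them overlapping. ALDH3B1 and ALDH3A2 each also had a promoter without the E-box. The core of the antioxidant response element that NRF2 binds, TGACNNNGC, was found in 2 (5.13%, against 13.3%), both promoters of AKR7A2, and the AP-1 site TGANTCA in 2 (5.13%, against 7.71%), both of ADH7. The promoter of no AKR1C gene held any of these letters, and sequence farther from the start was not searched. A match is a description of the sequence, not evidence of binding.

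The sequence of miR-105 was set against the members' transcripts because the miR-105 label had 6 members lower. Its mature form (RefSeq, hsa-miR-105-5p) is given with the seed, bases 2 to 8, in capitals, beside the first site of ALDH6A1 and the site of AKR1C1, where capitals mark the complement GCATTTG of that seed.
miR-105: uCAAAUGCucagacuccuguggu
ALDH6A1 site: aagaggcacacatttGCATTTGcattagta
AKR1C1 site: caacattacgtacagGCATTTGaggtcggg

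Downstream of the stop codon, 1 GENCODE v29 transcript per gene was searched for GCATTTG on the sense strand. ALDH6A1 had 2 sites in 3795 bases, AKR1C1 had 1 in 5544 and ADH6 had 1 in 1583. Of the 27 members that passed the filter, 2 had a site (7.41%), and the median length searched in these members was 818 bases. ALDH6A1 was 1 of the 6 members called lower with the miR-105 label, whereas AKR1C1 was called higher there. Of the 12125 genes tested for which a transcript was found, 13.6% had a site. Of those called lower with the miR-105 label 10.6% did (211 of 1986), and of those called higher 13.4% did (240 of 1795). These shares are not adjusted for the length searched. Its median was 899 bases over all genes tested, 718 for those called lower and 884 for those called higher. ALDH1A3, ALDH3A1, ALDH3B1, ALDH3B2 and ALDH8A1, the other 5 called lower, had no match in the transcript searched.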

How the data were processed

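Poly(A) RNA from 4 MCF10A lines, 1 library each, was measured. Per the submitters' processing notes, TopHat2, edgeR and build hg19 were used. No version, read counter, annotation or strand setting is given in the sources used here. Reads of a gene and of an antisense neighbour cannot be told apart. The deposited values are a normalised signal per gene symbol and not raw counts: they have the form of edgeR pseudo-counts, with totals between 9220845 and 10307368. Inverting that adjustment (dispersion 0.0553) gave whole reads for 100% of 18859 values in every library (tolerance 1e-05 relative, largest residual 2.42e-08). Of the lines, 19 exact repeats were dropped, leaving 18840 genes.

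From the recovered reads, CPM was computed with totals of 9138429 (vector), 14025115 (GFP), 6859698 (miR-105) and 9795159 (MYC) reads and TMM factors of 1.012, 0.9871, 0.9295 and 1.077 (edgeR 4.0.16, R 4.3.3). The comparison took in 12484 of 18840 genes, those averaging 1 CPM or more, and log2 folds were taken after adding 0.5 CPM. No test was the main result, because 1 library per construct leaves no spread. Folds of single genes are ratios of CPM with exact conditional binomial intervals, and levels have Poisson intervals. DESeq2 1.42.0 and edgeR, with the controls as 1 group and Benjamini-Hochberg adjustment over all genes, were alternatives, as were other scalings, filters, pseudocounts, thresholds and controls, the deposited signal unscaled, and copies summed. The steps were tested on simulated data. Values are given for each member called or with a mean of at least 20 CPM, and for up to 4 called genes per list and label. Some genes that this rule names are not reported here. Members and lists were chosen with earlier results of these data known. The copy identity and miR-105 site searches were added after the data had been seen. Gene places and lengths are from GENCODE 29 (GRCh38), matched by symbol.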

Additional observations from a re-analysis of the deposited data

How the results depend on the processing

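Of 80 counts of called members compared across the alternatives, 75 stayed within 1.5 times the reported count and 5 did not. Summing near-identical copies gave 5 members higher with the miR-105 label, 8 higher with the MYC label and 8 lower in the miR-105 library than in the MYC library, since each set of copies then counts as 1 member. A 1.5-fold threshold gave 1 member higher and 1 lower in GFP than in vector. Of 622 log2 folds of single members recomputed, all 346 of called members kept their direction, and 3 of 276 of members not called changed sign near 0. These were AKR1A1 with the miR-105 label, 0.15, at −0.01 with vector alone as control, and ALDH4A1 with the MYC label, −0.06, at 0.05 with library totals alone and 0.10 with GFP alone. Changing the filter or the threshold, or summing copies of other genes, leaves a fold as it was. A member called against both controls also cannot reverse against 1 of them alone. The kept direction of the 346 folds was thus partly fixed in advance. The calls lost were ALDH8A1 with the miR-105 label and AKR1B10 with the MYC label, each with a filter of 5 CPM and with DESeq2. Adding 2 CPM in place of 0.5 moved the log2 fold of ALDH3A1 with the miR-105 label to −1.71, that of ALDH8A1 to −1.11 and that of ADH1B with the MYC label to 6.37. No filter added AKR1B15, ALDH1L1 and ALDH2 as higher with the MYC label. No replicate could be left out, as each construct had 1 library. No paired analysis was possible because there was 1 library per construct and the labels give no replicate numbers. Depth limits the folds that rest on 0 to 2 reads: those of ALDH3A1 and ALDH8A1 with the miR-105 label, and those of the ADH1 genes over either control. Of the latter, the folds against 0 reads are taken against 3 reads and leave out counting error.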
